A study of Mus musculus with 12 samples.

Results

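Gene expression was compared between the medullary and the cortical epithelium of the normal mouse thymus. Of the 12 RNA-seq libraries of the series, the 6 from control mice were taken, 3 of cortical thymic epithelial cells (cTECs) and 3 of medullary thymic epithelial cells with high MHC class II (mTEChi), and the 6 HOIL-deficient libraries were left out. The comparison covered every gene in the count files. The controls are given as Foxn1cre+/+ Hoillox/lox, so they carry floxed Hoil alleles but lack the Foxn1-driven Cre transgene of the deficient mice, and their samples are labelled wild type. The mice were male C57BL/6; their age is not given in the sources used here. Flow cytometry selected CD45-, TER-119-, CD31- and EpCAM+ cells. The cTECs were MHC class II+, Ly51+ and UEA1-, and the mTEChi were MHC class II high, Ly51- and UEA1+, where UEA1 is a lectin that binds fucosylated glycans. The labels number the replicates but do not say that they are separate mice, so p-values reflect only how these samples vary, and that variation may be technical.

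The thymus makes T cells in steps that take place in different epithelium. In the cortex, cTECs attract lymphoid progenitors and give them the Notch signal that commits them to the T lineage. The cTECs also display peptides made by a proteasome specific to these cells and by lysosomal proteases, on which thymocytes are positively selected. In the medulla, mTECs that mature under RANK and CD40 signals express Aire and Fezf2, transcriptional regulators that allow genes of many peripheral tissues to be transcribed, so that T cells reactive to those tissues are deleted or diverted. Some mTECs also take on the gene programmes of other cell types, such as tuft cells, keratinocytes or enterocytes, and are called mimetic cells.

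Total counts were 7941217 to 10858804 in the cTEC libraries and 8641463 to 9768040 in the mTEChi libraries. Correlations of log2 CPM (counts scaled to a library total of 1000000) across genes were 0.961 to 0.980 among cTEC libraries and 0.944 to 0.983 among mTEChi libraries, against 0.601 to 0.640 between the cell types. The sorted antigens followed the gates: Enpep, which encodes Ly51, was at 142, 166 and 155 CPM in cTECs and at 10.6, 18.1 and 13.4 CPM in mTEChi. Since this gene and the MHC class II genes were used for the sort, their difference is not a finding. Markers of other cell types were also counted. Their numbers higher or lower stand beside 37.7% higher and 26.9% lower among all tested genes, by the test given below. The 23 thymocyte markers summed to 5107, 1588 and 2298 CPM in cTEC replicates 1 to 3 and to 257 to 344 CPM in mTEChi. The gate marker Ptprc, which encodes CD45, was at 311, 98.9 and 142 CPM in cTECs and at 10.1 to 19.4 CPM in mTEChi. All 23 thymocyte markers were lower in mTEChi (median log2 fold change -2.91), and none was at 0 in any group. The 22 dendritic cell and macrophage markers summed to 109 to 148 CPM in cTECs and to 1107 to 1504 CPM in mTEChi, of which Lyz2 alone, a lysozyme gene of macrophages and of some epithelia, took 652 to 1052 CPM. Of the 20 that were tested, 16 were higher in mTEChi and none lower (1 lower without cTEC replicate 2 or without mTEChi replicate 2), and none was at 0 in either group. The 15 B and plasma cell markers summed to 56.4 to 66.2 CPM and 241 to 310 CPM, with 11 of 13 tested higher in mTEChi and Pax5 at 0 in all cTEC libraries. The 25 fibroblast and pericyte markers were at 2243 CPM in cTEC replicate 1 and at 607 to 1062 CPM in the other 5 libraries, with 5 higher and 10 lower in mTEChi. The higher count was 3 without mTEChi replicate 1 or without mTEChi replicate 2. The 20 endothelial markers summed to 188 to 303 CPM in cTECs, where Erg was at 0, and to 169 to 224 CPM in mTEChi. Ets1 alone, which lymphocytes also express, took 141 to 210 CPM in cTECs and 13.03 to 15.97 CPM in mTEChi. Of the 20, 11 were higher and 2 lower in mTEChi, with 7 higher and 1 lower without mTEChi replicate 3 and 1 lower without cTEC replicate 1 or 3 or mTEChi replicate 1 or 2. The 10 erythroid markers had sums of 155 to 433 CPM in cTECs and 336 to 1296 CPM in mTEChi, and 6 of 7 tested were higher in mTEChi. In bulk RNA such as this, fewer cells of a type and less RNA per cell cannot be told apart.

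The epithelia differed in most of their genes. Among 18302 genes with enough counts to test, 11835 (64.7%) passed an adjusted p of 0.05 in edgeR's quasi-likelihood F test with Benjamini-Hochberg adjustment, the test behind every adjusted p below. Of these, 6906 (37.7% of tested genes) were higher in mTEChi and 4929 (26.9%) were lower. The CPM of the 3 libraries of each group did not overlap for 13137 genes (71.8%). The groups differed in the kind of change as well as in number. The higher genes had a median log2 fold change of 3.64 and the lower genes one of -1.30, where fold changes are mTEChi over cTEC throughout. At least 16-fold differences were found for 3210 higher genes and 134 lower genes, and at least 64-fold differences for 2070 and 7 genes. The genes higher in mTEChi were mostly of low abundance, with a median of 12.7 CPM in the mTEChi libraries, whereas the genes lower in mTEChi had a median of 50 CPM in the cTEC libraries. Of the 5619 tested genes whose higher group averaged 1 to 10 CPM, 54.8% were higher in mTEChi and 8.61% lower. Of the 2760 genes at 100 CPM or more, 30.9% were higher and 45.3% lower. The median log2 fold change of all tested genes was 0.17 and moved to 0.06 when libraries were scaled by their totals alone, to 0.28 with median-ratio size factors and to 0.33 with upper-quartile factors, so differences of this size depend on the scaling. Of the 314 genes that the naming rule picked, 92 had a fold change that moved by more than 1.5-fold when 1 library was left out, and 80 of these averaged under 1 CPM in the lower group, so folds of genes near 0 are imprecise.

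**Figure D1:**
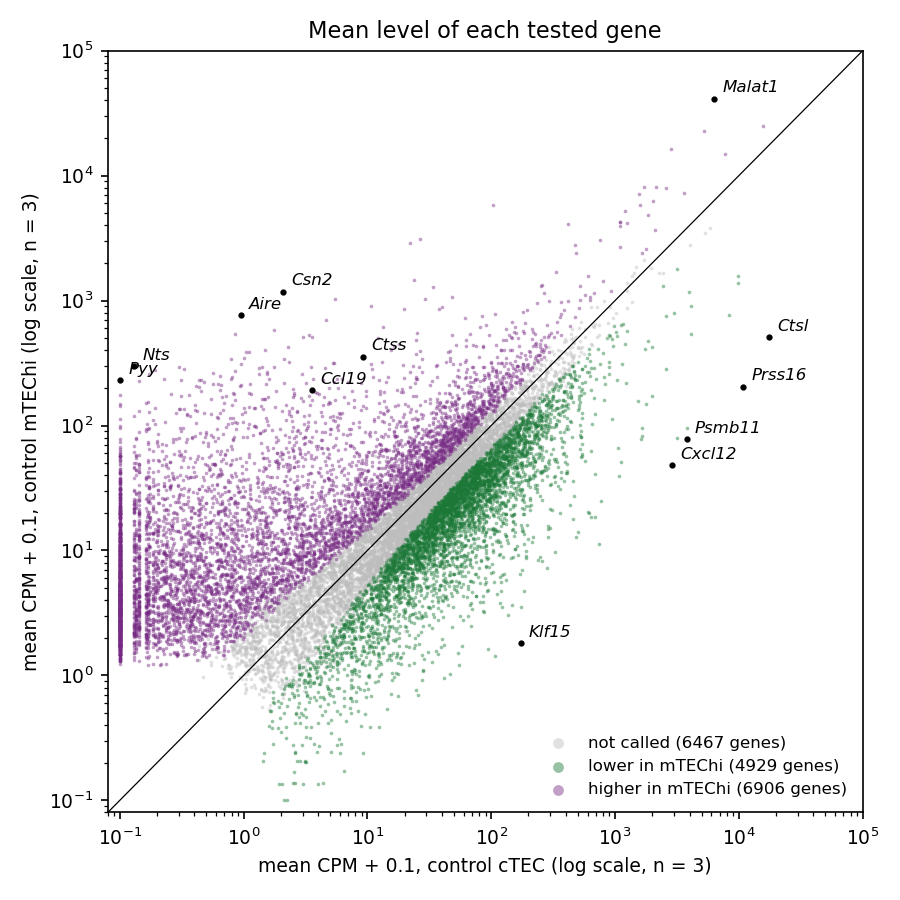
Mean CPM + 0.1 of each tested gene in the 3 control cTEC libraries (x axis, log scale) and the 3 control mTEChi libraries (y axis, log scale), coloured by call. The 6906 higher genes spread up the left side, where cTEC levels are near 0, and the 4929 lower genes lie closer to the diagonal.

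Medullary epithelium drew its RNA from more genes. After each library was thinned to 7941217 counts, cTEC libraries had a count for 18043, 18026 and 17873 genes (mean 17981 ± 93.6, SD, n = 3), and mTEChi libraries for 22097, 23221 and 23039 genes (22786 ± 603, SD, n = 3). The groups did not overlap; the exact two-sided permutation test gave p = 0.1, the smallest that 3 against 3 libraries can give. With a minimum of 5 counts the means were 15487 and 20036 genes. A count in all 3 mTEChi libraries and in no cTEC library was found for 2834 genes, of which 1163 had at least 10 counts in each mTEChi library. The reverse held for 69 genes, 3 of them with at least 10 counts. At the abundant end the order was the opposite: 2114 genes averaged 100 CPM or more in cTECs and 1683 in mTEChi. The 100 most abundant genes held 26.8, 23.7 and 24.3% of the counts in cTECs and 35.7, 29.2 and 31.0% in mTEChi (exact permutation p = 0.1, the smallest possible). Part of this share was mitochondrial: mitochondrially encoded genes took 1.42, 0.861 and 1.10% of cTEC counts and 8.93, 3.19 and 4.35% of mTEChi counts (exact permutation p = 0.1). With those genes left out the 100 most abundant held 24.7 ± 1.48% and 28.9 ± 1.34% (SD, n = 3). Malat1, an abundant nuclear long noncoding RNA, held 0.632% and 4.13% of counts on average (log2 fold 2.83, SE 0.30, adjusted p = 3.3e-05).

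**Figure D2:**
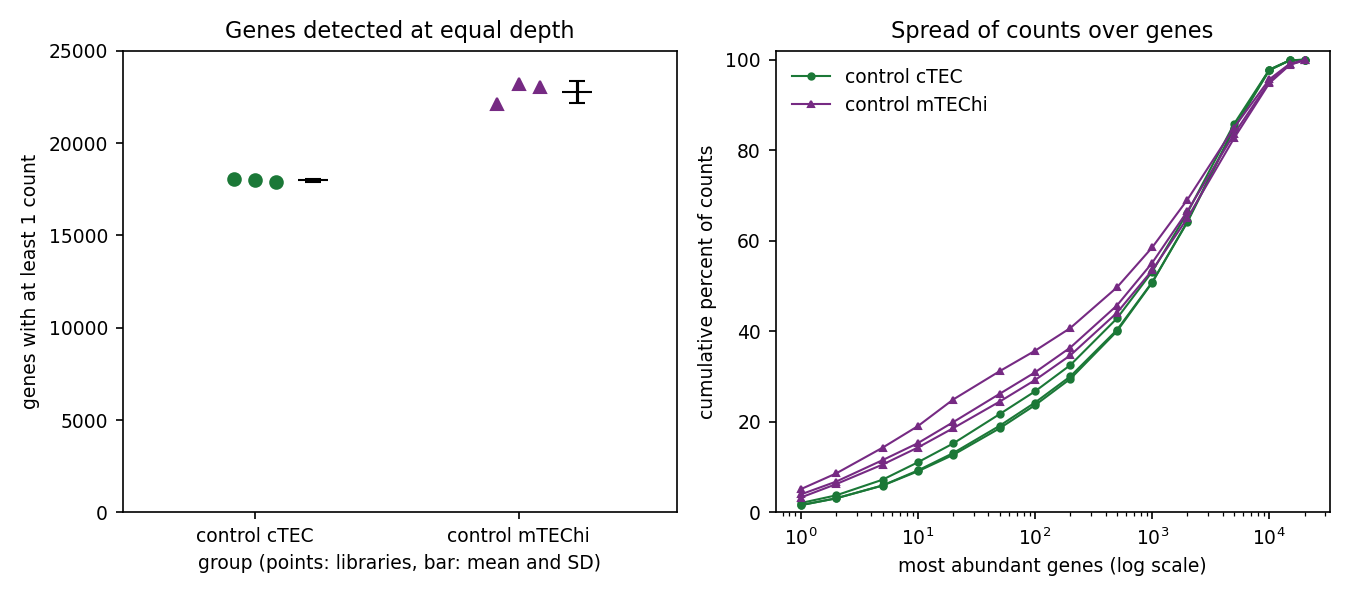
Left, genes with at least 1 count in each control library thinned to 7941217 counts (points, with the group mean and SD). Right, cumulative percent of counts against the number of most abundant genes (log scale), by library. Medullary libraries detect 22097 to 23221 genes and cortical libraries 17873 to 18043, while the medullary curves start higher.

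The genes that define cortical epithelium were abundant in cTECs and lower in every mTEChi library, with the enzymes that make cortical peptides among the largest differences. Psmb11 (Entrez 73902, chromosome 14, 54625310 to 54629556), the catalytic subunit β5t of the thymoproteasome, was at 4404, 3585 and 3364 CPM in cTECs and at 71.0, 108 and 55.0 CPM in mTEChi. The groups lay far apart, at -5.49 on the log2 fold scale (SE 0.31, adjusted p = 6.4e-07). Prss16 (Entrez 54373, chromosome 13, 22002176 to 22009741), the endosomal serine protease TSSP, was at 11123, 11361 and 9982 CPM and at 199, 272 and 144 CPM (-5.61, SE 0.29, adjusted p = 4.5e-07). Ctsl (Entrez 13039, chromosome 13, 64361890 to 64370772), the protease cathepsin L, was at 20736, 16206 and 15931 CPM and at 459, 597 and 480 CPM (-4.99, SE 0.24, adjusted p = 3.3e-07). These enzymes make the peptides that are displayed in the cortex, and their lowest cTEC library stood above their highest mTEChi library by a wide margin. The endocytic receptor gene Ly75 was at 553, 792 and 729 CPM in cTECs and at 12.9, 24.6 and 17.4 CPM in mTEChi (-5.13, SE 0.28). Cd83, whose product stabilises MHC class II at the surface, was at 4758, 3446 and 3227 CPM against 65.8, 116 and 103 CPM (-5.23, SE 0.29).

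The cortical genes that act on thymocytes or specify the epithelium were lower in mTEChi too, some by less. Cxcl12 (Entrez 20315, chromosome 6, 117168535 to 117181368), the chemokine that draws CXCR4+ progenitors, was at 2729, 3149 and 2740 CPM in cTECs and at 38.7, 70.9 and 35.6 CPM in mTEChi (-5.78, SE 0.31, adjusted p = 5.4e-07). Ccl25, the ligand of CCR9, was at 13195, 7661 and 8590 CPM and still at 1364, 1458 and 1310 CPM in mTEChi (-2.72, SE 0.25, adjusted p = 1.3e-05). The Notch ligand gene Dll4 was at 221, 454 and 361 CPM and at 25.8, 39.7 and 32.6 CPM (-3.29, SE 0.29). Il7, the cytokine for early thymocyte survival, was at 317, 414 and 356 CPM and at 63.0, 105 and 98.5 CPM (-1.92, SE 0.22). For none of them did the groups overlap. The master regulator Foxn1 (Entrez 15218, chromosome 11, 78357577 to 78386783), a forkhead factor on which all thymic epithelium depends, was at 351, 660 and 547 CPM in cTECs and at 37.3, 90.2 and 68.6 CPM in mTEChi (-2.88, SE 0.33, adjusted p = 5.4e-05). Of 25 cTEC-associated genes on the list, 23 were lower in mTEChi (median log2 fold change -3.29), beside 26.9% of all tested genes. On the list 1 gene was higher (Scx, 1.27) and Dkk3 did not pass (0.99, adjusted p = 0.12). The list was drawn from known cTEC genes, so its direction is a check of the sort.

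**Figure D3:**
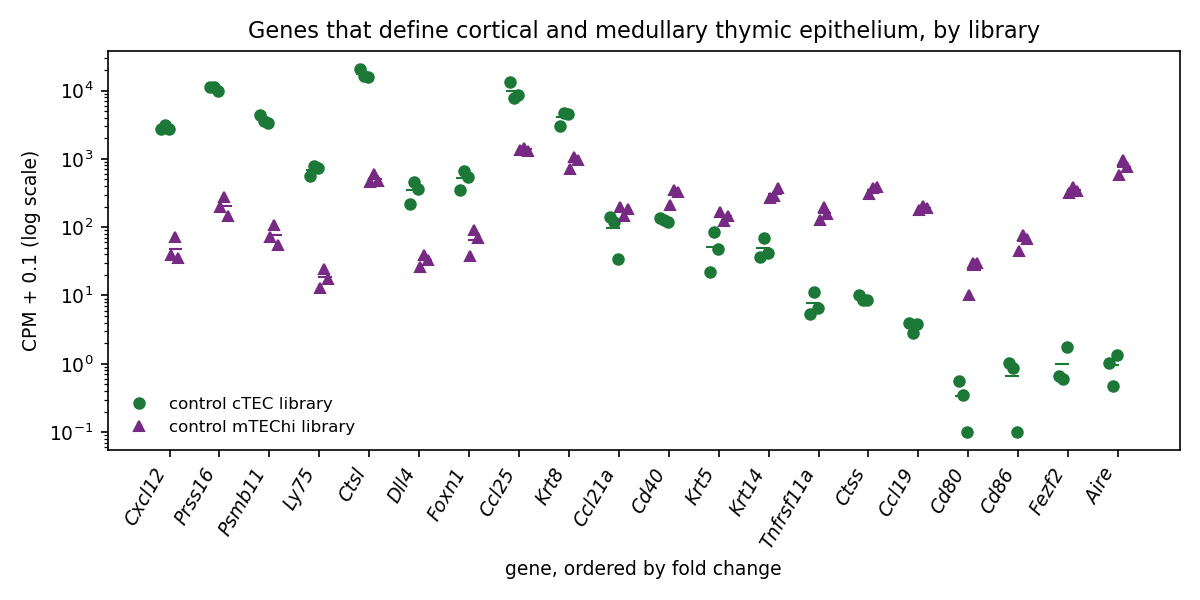
CPM + 0.1 (log scale) of the genes that define cortical and medullary thymic epithelium in each control library, ordered by fold change. Circles are cTEC libraries, triangles mTEChi libraries and bars group means. From Cxcl12 to Krt8 the cTEC libraries lie higher, and from Cd40 to Aire the mTEChi libraries lie higher, while Ccl21a overlaps.

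The 10 genes with the largest drop in mTEChi included several that are not on that list. Klf15 (Entrez 66277, chromosome 6, 90461043 to 90491803), a Krüppel-like factor known from glucose and amino acid metabolism, was at 130, 206 and 181 CPM in cTECs and at 0.512, 2.69 and 1.97 CPM in mTEChi (-6.53, SE 0.43, adjusted p = 1.7e-06). Ednrb (Entrez 13618, chromosome 14, 103814615 to 103844508), an endothelin receptor gene, was at 90.0, 118 and 112 CPM against 0.717, 1.65 and 1.62 CPM (-6.21, SE 0.31, adjusted p = 3.8e-07). Frmd6, which encodes a FERM domain protein of the Hippo pathway, was at 298, 1048 and 872 CPM against 8.19, 13.9 and 11.2 CPM (-5.94, SE 0.48). In each case the lowest cTEC library was well above the highest mTEChi library. Tmem169 (-5.82), the scavenger receptor gene Scarf2 (-5.54), the epithelial zinc finger gene Bnc1 (-5.50) and the repressor gene Hic1 (-5.49) completed the group with Prss16, Psmb11 and Cxcl12. Tmem169 was at -6.50 without mTEChi replicate 2 and Hic1 at -4.74 without cTEC replicate 2. Only 1 named called gene had no count in any mTEChi library: the noncoding host gene Mir100hg, at 2.67, 1.76 and 1.65 CPM in cTECs, at least 19.0-fold lower in mTEChi.

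The machinery that makes class I peptides differed by subunit. The proteasome has 3 alternative β5 catalytic subunits, encoded by Psmb5 (constitutive proteasome), Psmb8 (immunoproteasome) and Psmb11 (thymoproteasome), and their levels can be compared per length, as RPKM (counts per kilobase of gene length of the library total, on the CPM scale). Psmb11 was at 891 ± 129 RPKM in cTECs and 18.4 ± 6.37 RPKM in mTEChi. Psmb8 was at 186, 85.6 and 104 RPKM in cTECs and at 385, 481 and 520 RPKM in mTEChi (log2 fold change 1.99, SE 0.30, adjusted p = 0.00025). Psmb5 did not pass the test, at 227 ± 24.2 and 204 ± 13.98 RPKM (SD, n = 3; log2 fold change -0.03, SE 0.18, adjusted p = 0.87). Of the summed RPKM of the 3 genes, Psmb11 made up 71.7% in cTECs and 2.68% in mTEChi, Psmb8 10.1% and 67.5%, and Psmb5 18.2% and 29.9%. The other inducible subunits went the opposite way to Psmb8. Psmb9 had 839 ± 70.5 RPKM in cTECs and 360 ± 25.5 RPKM in mTEChi (-1.10, SE 0.18, adjusted p = 0.00044), and Psmb10 had 823 ± 69.6 and 411 ± 4.68 RPKM (-0.89, SE 0.17, adjusted p = 0.0013). In all, 3 of 10 proteasome genes were higher and 3 lower (median 0.10), shares near those of all tested genes. The constitutive counterparts Psmb6 (0.16, adjusted p = 0.41) and Psmb7 (0.03, adjusted p = 0.91) did not pass. Among the PA28 activator genes, whose products open the proteasome gate, Psme1 and Psme2 were higher in mTEChi. Psme1 was at 70.4, 39.8 and 46.3 CPM against 505, 400 and 422 CPM (3.20, SE 0.27). Psme2 was at 57.4, 47.2 and 61.4 CPM against 266, 234 and 236 CPM (2.27, SE 0.20). Psme3 did not pass (0.22, adjusted p = 0.33).

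Among 14 class I genes tested, 6 were higher and 4 lower in mTEChi (median 0.29), shares close to the 37.7% and 26.9% of all tested genes. B2m, the light chain, was at 2152, 1537 and 1467 CPM in cTECs and at 8058, 8233 and 8242 CPM in mTEChi (2.36, SE 0.22, adjusted p = 1.3e-05), H2-K1 had a log2 fold change of 1.74 and H2-D1 one of 1.73. Nlrc5, the class I transactivator, was at 6.81, 8.94 and 7.54 CPM against 49.9, 61.8 and 58.4 CPM (2.98, SE 0.22). The lower genes were Erap1 (-1.66), which encodes a peptide-trimming enzyme, Tap2 (-0.95), Tapbp (-0.66) and Tapbpl (-0.56), of peptide transport and loading, while Tap1 (-0.43) did not pass. The number of lower genes was 1 without cTEC replicate 2 and 2 without mTEChi replicate 3 or with upper-quartile scaling.

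Lysosomal proteases differed in both directions. Of 16 tested, 7 were higher and 5 lower in mTEChi (median 0.83), beside 37.7% and 26.9% of all tested genes. Ctss (Entrez 13040, chromosome 3, 95526786 to 95556405), cathepsin S, which trims the invariant chain in most antigen-presenting cells, was at 10.2, 8.44 and 8.57 CPM in cTECs and at 308, 370 and 389 CPM in mTEChi (5.40, SE 0.22, adjusted p = 1.8e-07). Ctsh (5.48, SE 0.48) and Ctsz (4.58, SE 0.42), also cathepsin genes, differed by a similar factor, with 7.05 to 21.2 CPM in cTECs against 326 to 606 CPM for Ctsh. Against these stood Ctsl and Prss16, described above, Ctsa (1013, 896 and 922 CPM against 81.9, 126 and 131 CPM; -2.95, SE 0.22), Ctsd (-1.27) and Lgmn (-0.72). Ctss, Ctsh and Ctsz are also expressed by dendritic cells and macrophages, whose summed markers were higher in the mTEChi libraries; their part in the result was not tested. Of 26 autophagy and lysosome genes, 12 were lower and 5 higher in mTEChi (median -0.52). Lamp2, a lysosomal membrane protein gene, was at 3005, 2531 and 2273 CPM against 236, 318 and 303 CPM (-3.08, SE 0.21), and the autophagosome marker Map1lc3b at 622, 524 and 481 CPM against 194, 241 and 224 CPM (-1.19, SE 0.19). Npc2, a lysosomal cholesterol carrier, went up from 240 to 314 CPM to 1103 to 1188 CPM (2.23, SE 0.20). Of 13 class II genes, whose products the sort selected on, 8 were higher and 2 lower. The restraining chaperone subunit H2-Ob was at 3.41 to 6.72 CPM in cTECs and 81.3 to 91.9 CPM in mTEChi (4.24, SE 0.28), against a log2 fold change of 1.05 for H2-Ab1 and 0.78 for Cd74; H2-Oa, its partner, was at 2.04. The lower genes were Rfxap (-1.87), a class II promoter factor, and H2-DMa (-0.55), and H2-DMa no longer passed in some refits (1 lower gene without cTEC replicate 2, cTEC replicate 3 or mTEChi replicate 3).

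The regulators of promiscuous gene expression were near 0 in the cTEC libraries and abundant in mTEChi. Aire (Entrez 11634, chromosome 10, 78030022 to 78043610) was at 0.921, 0.378 and 1.24 CPM in cTECs and at 577, 969 and 765 CPM in mTEChi (9.88, SE 0.39, adjusted p = 1.6e-07). Fezf2 (Entrez 54713, chromosome 14, 12338992 to 12346803) was at 0.553, 0.504 and 1.65 CPM against 311, 393 and 343 CPM (8.67, SE 0.39, adjusted p = 2.5e-07). The factors known to work with them did not share this pattern. Of 24 genes on the list of Aire, Fezf2 and partners, 5 were higher and 9 lower (median -0.29), beside 37.7% and 26.9% of all tested genes. The 5 higher genes were Aire and Fezf2 themselves, Sirt1, Prdm1 (2.78) and Dnmt3a (0.83). Sirt1, a deacetylase that acts on the Aire protein, was at 20.8, 23.3 and 29.9 CPM in cTECs and at 188, 278 and 238 CPM in mTEChi (3.36, SE 0.22, adjusted p = 1.7e-06). Xrcc5 and Xrcc6, which encode the Ku proteins found in Aire complexes, were lower in mTEChi: Xrcc5 was at 133, 150 and 157 CPM against 11.7, 16.8 and 15.2 CPM (-3.22, SE 0.20), and Xrcc6 had a log2 fold change of -2.35. Top2b (-1.96) and Top2a (-1.14) were lower too, while Parp1 (-0.29), Prkdc (-0.18), Chd4 (0.01), Top1 (0.22) and Crebbp (0.33) did not pass. In cTECs, Xrcc6 (214, 84.7 and 95.8 CPM), Top2b (225, 141 and 133 CPM) and Top2a (152, 74.4 and 93.8 CPM) were highest in replicate 1. That library also had the highest thymocyte sum. The other lower genes, Xrcc5, Kat7, Ccnt1, Atf7ip, Mbd1 and Deaf1, were lowest in it. The part of thymocyte RNA in these differences was not tested.

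Of 29 genes of RANK, CD40, lymphotoxin and NF-kB signalling, through which mTECs mature, 11 were higher, 5 were lower and 13 did not pass (median 0.30), a higher share close to that of all tested genes (37.7%). Tnfrsf11a, which encodes RANK, was at 5.34, 11.1 and 6.51 CPM in cTECs and at 126, 195 and 155 CPM in mTEChi (4.50, SE 0.31, adjusted p = 2e-06). Tnfrsf11b, the decoy receptor osteoprotegerin, was at 0.184, 1.51 and 2.69 CPM against 77.6, 242 and 190 CPM (6.99, SE 0.66). Cd40 was already at 137, 126 and 118 CPM in cTECs and at 213, 350 and 327 CPM in mTEChi (1.33, SE 0.21). Ltbr, the lymphotoxin receptor gene, was lower, at 163, 203 and 194 CPM against 39.1, 44.2 and 39.3 CPM (-2.08, SE 0.18). Traf1 (5.01) and Nfkbia (2.43), both known NF-kB target genes, were higher, Nfkb2 rose by 0.93 (adjusted p = 0.028), and Relb missed the threshold (0.72, SE 0.31, adjusted p = 0.063).

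Of 17 costimulation and adhesion genes tested, 9 were higher and 7 lower, beside 37.7% and 26.9% of all tested genes. Their median was 1.33, or 2.48 without cTEC replicate 2 and 2.07 without cTEC replicate 3. Cd80 and Cd86, the ligands of CD28, were at 0 to 0.460 CPM and 0 to 0.921 CPM in cTECs. In mTEChi, Cd80 was at 10.1, 29.7 and 30.0 CPM (6.59, SE 0.70) and Cd86 at 44.3, 76.4 and 67.2 CPM (6.87, SE 0.56). Cd70 (6.78), Tnfsf9 (6.10, or 6.97 without cTEC replicate 1), which encodes the 4-1BB ligand, and Icosl (5.87) were likewise near 0 in cTECs and at 55.9 to 234 CPM in mTEChi. The lower genes included ligands known to restrain T cells. Lgals9, which encodes galectin-9, was at 1701, 2062 and 2188 CPM in cTECs and 138, 175 and 202 CPM in mTEChi (-3.42, SE 0.21), and Cd274, which encodes PD-L1, was at 390, 461 and 443 CPM against 109, 115 and 104 CPM (-1.87, SE 0.17). Pdcd1lg2, which encodes PD-L2, went the other way, at 5.43, 6.67 and 2.58 CPM against 38.9, 47.3 and 46.1 CPM (3.28, SE 0.34). Icam1 did not pass (0.01).

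By number, most genes of the chemokine list, which includes the receptor genes Ackr2, Ackr3 and Ackr4, were higher in mTEChi. Of 26, 20 were higher and 4 were lower (median 4.27), against 37.7% and 26.9% of all genes. Their summed level went the other way, at 16690, 11780 and 12250 CPM in cTECs and 4272, 4705 and 4611 CPM in mTEChi. Ccl19 (Entrez 24047, chromosome 4, 42754525 to 42756365), a ligand of CCR7, the receptor of positively selected thymocytes, was at 3.87, 2.77 and 3.72 CPM in cTECs and at 181, 206 and 190 CPM in mTEChi (5.90, SE 0.23, adjusted p = 1.6e-07). The other CCR7 ligand tested, Ccl21a, overlapped between groups, with 142, 119 and 33.9 CPM in cTECs and 199, 148 and 186 CPM in mTEChi. It missed the threshold (0.96, SE 0.43, adjusted p = 0.073) and passed without cTEC replicate 1 (log2 fold change 1.38), with upper-quartile scaling and with DESeq2. Ccl21a has near-identical copies, so its count is uncertain. Ccl22, a ligand of CCR4, was at 0, 1.13 and 0 CPM against 128, 292 and 244 CPM (9.46, SE 0.75), and Ccl20 at 0.829 to 4.86 CPM against 485 to 541 CPM (7.59, SE 0.49). Ccl5 (5.61), Ccl6 (5.77) and Ccl9 (7.03), of which macrophages are a known source, were at 0.516 to 4.53 CPM in cTECs and 122 to 207 CPM in mTEChi; the macrophage markers that moved with them are given above, and their part was not tested. The 4 lower genes were Cxcl12, Ccl25, the scavenging receptor Ackr4 (-4.40) and Cx3cl1 (-1.46).

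Of 23 Notch pathway genes tested, 9 were higher and 9 lower, beside 37.7% and 26.9% of all tested genes. Their median of -0.15 turned to 0.0083 with upper-quartile scaling and to 0.11 without mTEChi replicate 1. Besides Dll4, the ligand genes Jag2 (36.9, 126 and 112 CPM against 4.30, 6.72 and 2.78 CPM; -4.18, SE 0.49) and Dll1 (-1.96) were lower in mTEChi, and so was Hey1, a direct target of the pathway (162, 202 and 209 CPM against 10.9, 7.45 and 8.45 CPM; -4.29, SE 0.24). Among other target genes, Hey2 (-1.33) was lower, Nrarp (1.19) was higher, and Hes1 (0.13) and Heyl (-0.15) did not pass. Jag1 (1.74), Dlk1 (4.60) and the glycosyltransferase genes Lfng (1.84) and Mfng (3.18), which tune ligand choice, were higher. Lfng was low in both groups, at means of 0.424 CPM in cTECs and 1.35 CPM in mTEChi. Rfng, of the same family, was lower in mTEChi, at means of 69.6 and 24.1 CPM (-1.42, SE 0.27). Dll3 had 1 count in cTECs and 359 in mTEChi, a ratio of 364 in CPM (95% counting interval 64.9 to 14420). Of 26 growth factor, Wnt and BMP genes, 10 were higher and 8 lower (median 0.27), near the 37.7% and 26.9% of all tested genes. Wnt4, which sustains Foxn1 in thymic epithelium, was at 458, 550 and 574 CPM in cTECs and 80.8, 85.2 and 78.1 CPM in mTEChi (-2.58, SE 0.18), and the Wnt inhibitor receptor gene Kremen1 (-3.16), the FGF receptor gene Fgfr2 (-3.32) and Kitl (-2.17) were lower with it. Wnt10a was at 1.57, 3.15 and 2.89 CPM against 46.0, 89.5 and 86.1 CPM (4.98, SE 0.35) and Bmp2 at 0.252 to 1.14 CPM against 31.3 to 40.8 CPM (5.83, SE 0.41).

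Of 33 epithelial transcription factor genes tested, 20 were higher and 11 lower (median 2.13). Of all tested genes, 37.7% were higher and 26.9% lower, to be read beside the keratin and junction counts below as well. The lower ones included genes of pharyngeal pouch development and of basal epithelium, Pax1 (849, 1266 and 1127 CPM against 29.8, 48.9 and 38.4 CPM; -4.68, SE 0.26), Hoxa3 (-2.60), Trp63 (-2.46), Isl1 (-1.87), Eya1 (-1.44) and Pax9 (-0.96). The higher ones included regulators of differentiated surface epithelium, Elf3 (8.93, 10.96 and 8.99 CPM against 179, 190 and 194 CPM; 4.40, SE 0.20) and Ehf (4.33, 3.15 and 5.78 CPM against 78.3, 91.3 and 94.5 CPM; 4.42, SE 0.26), together with Grhl3 (5.08) and Klf4 (3.84). Keratin genes differed in both directions, 11 higher and 3 lower of 15. The simple keratins Krt8 (3044, 4667 and 4581 CPM against 704, 1055 and 971 CPM; -2.06, SE 0.23), Krt18 (-2.54) and Krt7 (-1.04) were lower in mTEChi, and Krt17 (0.26) did not pass. The higher genes included Krt19 (3.09) and Krt20 (8.01), which are also keratins of simple epithelium. Krt14, a basal keratin, was at 37.1, 68.3 and 41.4 CPM against 270, 282 and 373 CPM (2.78, SE 0.27), and Krt5, its partner, at 21.7, 84.0 and 47.4 CPM against 169, 122 and 145 CPM (1.64, SE 0.40, adjusted p = 0.005; 2.25 without cTEC replicate 2). Krt16 was at 0.737 to 1.14 CPM against 96.8 to 107 CPM (6.79, SE 0.26). Of 29 claudin and junction genes, 21 were higher and 5 lower (median 2.30). Cldn7 was at 1.29, 2.39 and 2.38 CPM against 342, 334 and 347 CPM (7.53, SE 0.28), and Cldn4 at 1.51 to 2.85 CPM against 116 to 156 CPM (5.96, SE 0.28). Cldn8 went the other way (-3.47), as did Cdh3 (-2.22) and Jup (-1.50).

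Genes of peripheral tissues made up the top of the higher genes. Of the 10 with the largest fitted fold change, 9 had no count in any cTEC library, where 3 counts over the group, 0.105 CPM, is the limit that 0 allows. Folds against that limit are lower bounds and cover counting error only. Pyy (Entrez 217212, chromosome 11, 102106676 to 102107832), the gut hormone peptide YY, was at 269, 193 and 234 CPM in mTEChi, at least 2204-fold higher than in cTECs. Dppa3 (Entrez 73708, chromosome 6, 122626424 to 122630271), a germ cell and early embryo gene, was at 152, 190 and 187 CPM (at least 1675-fold). Nts, the neuropeptide neurotensin, had 1 count in cTECs and 8389 in mTEChi, a ratio of 8509 in CPM (95% counting interval 1527 to 336100). These are products of intestine, germ line and nerve, and all 3 mTEChi libraries held them. The others were the epidermal serpin Serpinb12 (141, 149 and 152 CPM), the skin gene Skint9 (142, 151 and 137 CPM; at least 1363-fold), the kallikreins Klk1b9 (102, 130 and 105 CPM) and Klk1b11 (81.1, 80.04 and 73.7 CPM), the serine protease Prss29 (82.5, 118 and 98.1 CPM; at least 945-fold), the pancreatic Reg1 (119, 73.1 and 92.9 CPM; at least 903-fold) and Pate14 (62.6, 86.9 and 70.5 CPM). In all, 1233 called genes had no count in any cTEC library and 2 had none in any mTEChi library.

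Lists of tissue-restricted products went in 1 direction. The filter kept genes with enough counts in the libraries of either group. Tested genes at 0 in all cTEC libraries were 10 peptide hormone, 12 milk, salivary and seminal, and 10 liver genes. These entered through their mTEChi counts and could not come out lower, so the absence of lower genes among them carries no weight. All 29 peptide hormone genes that were tested, of 31 on the list, were higher in mTEChi, with a median log2 fold change of 9.74, or 8.05 with genes at 0 in cTECs set to their bound. Gal was at 0.276, 0 and 0.103 CPM in cTECs and at 247, 230 and 224 CPM in mTEChi (10.69, SE 0.41). Iapp, the islet amyloid peptide, had 3 counts against 7780, a ratio of 2630 (95% counting interval 899.8 to 12760), and Ins2, which encodes insulin, was at 0, 0 and 0.103 CPM against 57.0, 34.4 and 41.1 CPM. Of 24 milk, salivary and seminal protein genes tested, 21 were higher and none lower (median 8.33, or 6.41 at the bound; 1 lower without cTEC replicate 1). The milk casein Csn2 (Entrez 12991, chromosome 5, 87692619 to 87699429) was at 0.553, 2.14 and 3.20 CPM against 968, 1329 and 1246 CPM (9.36, SE 0.50; 9.96 without cTEC replicate 3), and Csn1s2a at 0 against 54.4, 63.0 and 54.2 CPM (at least 543-fold higher). Of 29 liver plasma protein genes, 28 were higher and none lower (median 7.30, or 6.33 at the bound), led in level by Apoa4 (319 to 367 CPM in mTEChi) and Apoa1 (0.0921, 0 and 0.516 CPM against 340, 257 and 288 CPM; 10.49, SE 0.50). The fold of Apoa4 rests on 1 library: its log2 fold change was 9.20, and 11.75 without cTEC replicate 2, which held 1.89 CPM against 0.103 CPM or less in the others. For comparison, 37.7% of all tested genes were higher and 26.9% lower in mTEChi.

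Testis and germline genes were represented in part: 17 of 28 had enough counts to test, 13 were higher and none lower (median 5.78, or 4.78 without cTEC replicate 1). Members near 0 in cTECs entered the test through their mTEChi counts and could not come out lower, here and among the autoimmune antigens below. Of all tested genes, 37.7% were higher and 26.9% lower. Zp2, an egg coat gene, was at 0.737, 0 and 0.103 CPM in cTECs and at 80.6, 82.6 and 81.1 CPM in mTEChi (8.08, SE 0.53), and Fabp9, of the sperm acrosome, at 0.0921 to 0.723 CPM against 325, 128 and 172 CPM (9.44, SE 0.63). Without a filter on low counts, 21 of 28 were higher. Antigens of organ-specific autoimmune disease were higher for 19 of 23 tested genes, of 32 on the list, and lower for none (median 4.79, and 5.40 to 5.85 when mTEChi replicate 1 or any cTEC library was left out). Gad1, an islet and brain antigen, was at 0 in cTECs and at 23.2, 46.8 and 36.1 CPM in mTEChi (at least 336-fold higher), and Chrna1, the acetylcholine receptor subunit targeted in myasthenia, at 0 against 17.6, 19.1 and 20.4 CPM (at least 181-fold). The gastric proton pump gene Atp4a was at 0 to 0.378 CPM against 32.7 to 44.4 CPM (7.79, SE 0.50). Musk (-0.62), Aqp4 (0.05) and Ptprn2 (0.53) were among those that did not pass.

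Most markers of each of the 6 mimetic cell types listed were higher in mTEChi, beside 37.7% of all tested genes. Again, members near 0 in cTECs entered the test through their mTEChi counts and could not come out lower. Gut, microfold and secretory genes had the highest sum, 330 to 398 CPM over 40 genes in cTECs and 9869 to 10580 CPM in mTEChi, and all 39 that were tested were higher (median 7.03). A few genes made up much of these sums. Reg3g averaged 2903 CPM in mTEChi, and Marcksl1 was at 235 to 284 CPM in cTECs and averaged 1339 CPM in mTEChi. Reg3b, an antimicrobial lectin of the intestine, had 2 counts in cTECs and was at 143, 157 and 155 CPM in mTEChi, a ratio of 2157 (95% counting interval 596.7 to 17820), and the intestinal regulator Cdx1 was at 0.756 to 1.34 CPM against 259, 483 and 418 CPM (8.66, SE 0.35). Lyz2, on this list and on that of macrophages, is counted in both, and so are Ccl6, Ccl9 and Ccl20, on this list and on that of chemokines. Keratinized cell genes were higher for 30 of 32 tested (median 7.33, or 6.68 at the bound). Calm4, a calcium-binding protein of differentiated keratinocytes, was at 0.103 to 0.460 CPM against 190, 106 and 115 CPM (9.18, SE 0.49), Krtdap at 0.504 to 0.930 CPM against 164, 67.8 and 113 CPM (7.39, SE 0.46), and the cornified envelope gene Ivl at 0.368, 0 and 0 CPM against 12.9, 17.9 and 12.6 CPM. Dsc2, a desmosomal gene not limited to skin, was the 1 lower member (-1.49).

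Tuft, neuroendocrine, ciliated and muscle genes were at lower sums. The 28 tuft cell genes, markers of chemosensory epithelial cells, were tested in full and 25 were higher (median 4.67, or 5.96 without cTEC replicate 1), with the taste channel gene Trpm5 at 0, 0.126 and 0 CPM in cTECs and 38.3, 22.3 and 27.0 CPM in mTEChi, Rgs13 at 0 to 0.310 CPM against 38.1, 34.3 and 52.4 CPM (7.90, SE 0.49), and the kinase Dclk1 at 9.92 to 11.2 CPM against 30.6 to 45.5 CPM (1.90, SE 0.25). In all 3 the groups were separate. The 1 lower tuft gene was Ptprc, which thymocytes also express (2 lower without mTEChi replicate 1). Of 24 neuroendocrine genes, 23 were higher (median 5.76, or 4.84 at the bound), and Insm1, the zinc finger factor of endocrine cells, was at 0.0921 to 0.252 CPM against 76.3, 82.7 and 73.7 CPM (8.79, SE 0.33). Of 26 ciliated cell genes, 23 were higher and 1 lower (median 3.27): Mcidas, a regulator of multiciliogenesis, had 1 count against 366, a ratio of 371 (95% counting interval 66.2 to 14700), Rsph1 of the ciliary radial spoke was at 0.310 to 1.11 CPM against 20.1 to 27.3 CPM (4.98, SE 0.43), and Tekt2 was lower (-1.24) but did not pass without cTEC replicate 2. Of 27 muscle genes tested, 26 were higher (median 5.45, or 5.34 at the bound), with the giant sarcomere gene Ttn at 3.13, 2.14 and 1.76 CPM against 104, 130 and 92.9 CPM (5.63, SE 0.29) and the myogenic factor Myog at 0 against 18.2, 24.4 and 24.2 CPM (at least 211-fold higher). Bulk counts do not show which cells these products come from.

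**Figure D4:**
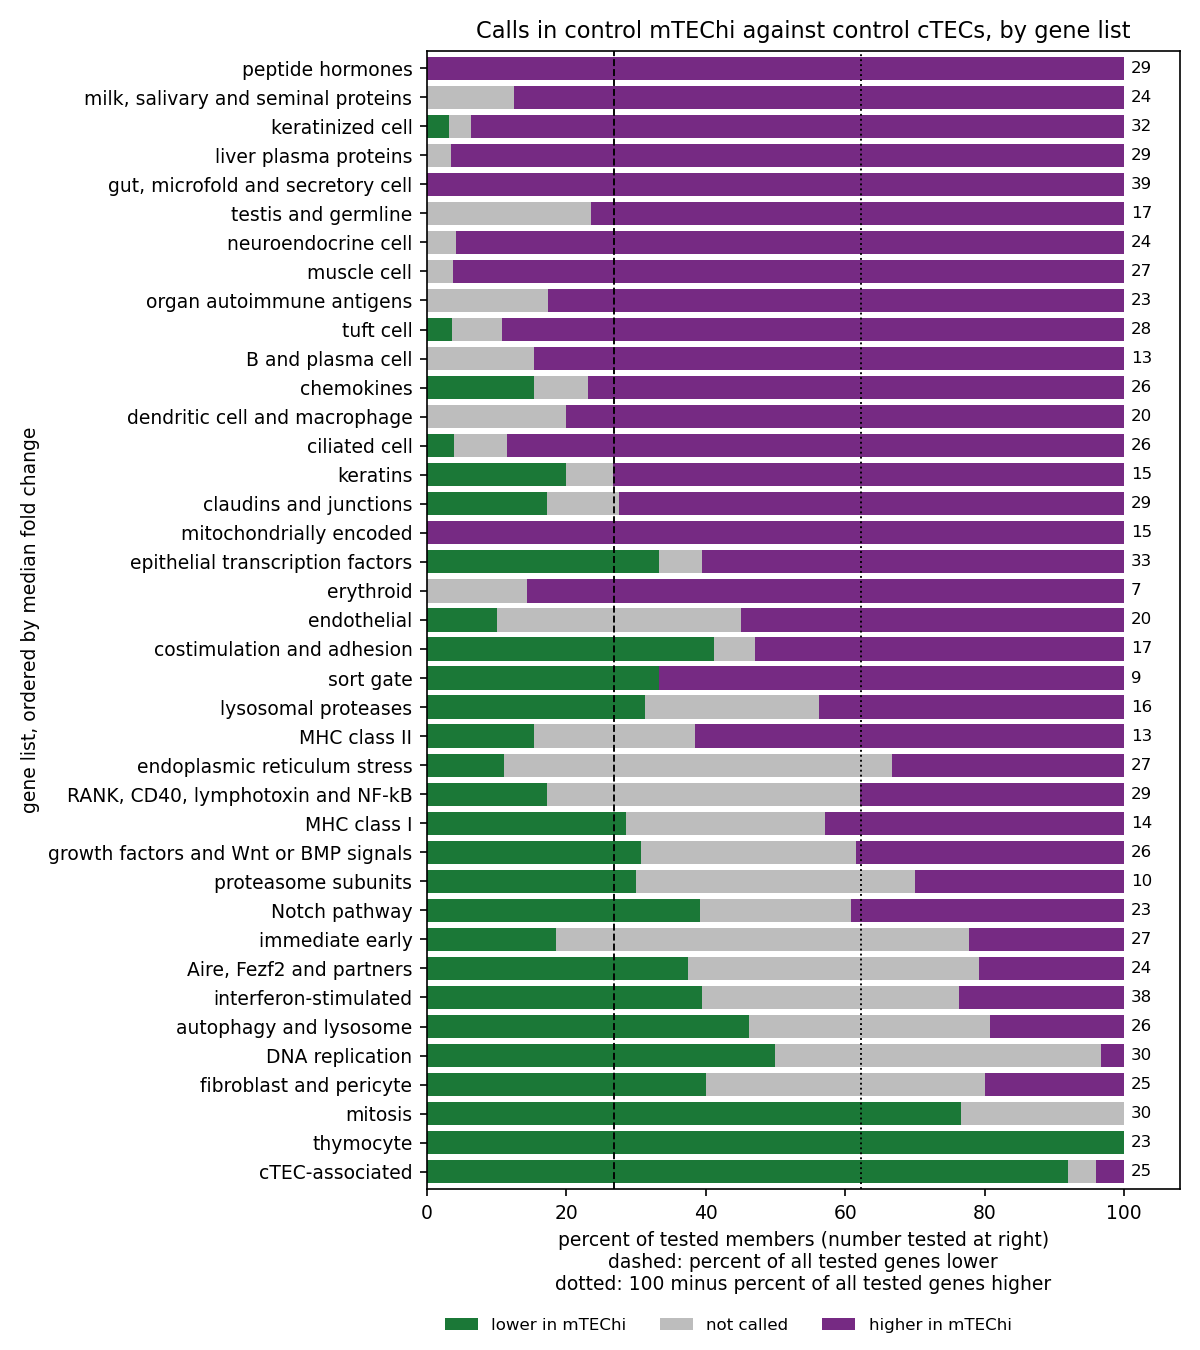
Percent of the tested members of each gene list that were lower in mTEChi, not called or higher in mTEChi, ordered by median log2 fold change (number tested at right). Dashed and dotted lines give the 26.9% of all tested genes that were lower and, from the right, the 37.7% that were higher. Thymocyte and cTEC-associated genes lie at the lower end and peptide hormones at the upper end.

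Many genes higher in mTEChi were neighbours on the chromosome. Runs of at least 4 neighbouring tested genes, each called and at least 4-fold higher, numbered 205 with 1263 genes, whereas 7 runs with 48 genes were at least 4-fold lower. The fold was met by 4722 genes in the higher direction and 1088 in the lower, and whether runs exceed what these numbers give was not tested. The longest run lay on chromosome 3 from 92285304 to 93471980 (mm10), with a median log2 fold change of 8.61 (range 2.11 to 11.06). This run held 42 genes of the epidermal differentiation complex, most of them Sprr, Lce and filaggrin family genes that build the cornified envelope. It also held Smcp, which is on the testis and germline list. The next were 28 genes on chromosome 7 from 43680880 to 44236122 (median 9.01), all kallikreins but 1700028J19Rik, 26 type I keratin and keratin-associated protein genes on chromosome 11 from 99232761 to 100248902 (median 5.98), 20 major urinary protein genes on chromosome 4 from 59956804 to 62054143 (median 8.25), and 19 genes on chromosome 5 from 86889770 to 88506049 (median 8.46) of several families, among them the caseins and the enamel genes Amtn, Ambn and Enam. Many neighbours within these runs belong to the same gene family. Members of the Sprr2, Lce, Klk1b and Mup families are near-identical in sequence, so reads may have been shared among them and the values of single copies are uncertain.

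The promoters of the 2 longest runs are shown because their genes were all higher in mTEChi, whereas the bases before their starts differed in how often they held the exact motif TATAAA. RefSeq gives 1 promoter window for 38 of the 42 genes of the epidermal run and for 25 of the 28 genes of the kallikrein run. The motif TATAAA, searched on the gene's own strand in the 50 bases before the start, was in 17 of the 38 epidermal windows (44.7%) and in 1 of the 25 windows of the kallikrein run (4.0%, Klk15). Over all 22862 genes with 1 window it was in 3.15%, and in 14.8% anywhere in the 300 bases on either strand. A match is only a description of these letters. Near matches were not searched in either run, so these shares do not cover them. TTTAAA, for example, stands in the 100 bases before Klk1b1 and Klk1b8, and also in those before Lce1a1. The 100 bases before the start follow (GRCm38.p6, 5′ to 3′ on the gene's strand, TATAAA in capitals), for Rptn at chr3:93393599-93393698 (+), Crnn at chr3:93144689-93144788 (+), Hrnr at chr3:93319649-93319748 (+), Klk7 at chr7:43811194-43811293 (+) and Klk1 at chr7:44225260-44225359 (+).
Rptn: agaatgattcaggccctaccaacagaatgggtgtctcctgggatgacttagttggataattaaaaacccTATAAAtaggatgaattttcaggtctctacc
Crnn: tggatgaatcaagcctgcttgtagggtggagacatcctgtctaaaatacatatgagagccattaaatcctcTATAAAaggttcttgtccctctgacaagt
Hrnr: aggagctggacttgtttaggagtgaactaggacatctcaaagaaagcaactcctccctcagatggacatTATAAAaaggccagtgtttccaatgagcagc
Klk7: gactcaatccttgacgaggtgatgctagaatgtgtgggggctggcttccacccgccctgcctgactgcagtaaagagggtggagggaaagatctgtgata
Klk1: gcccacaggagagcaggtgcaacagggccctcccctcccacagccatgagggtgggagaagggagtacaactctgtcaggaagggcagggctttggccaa
In the epidermal genes the motif began at -31 (Rptn), -29 (Crnn) and -31 (Hrnr) from the start, and the Klk7 and Klk1 sequences held none. Rptn, the epidermal repetin gene, was at 1.01, 0 and 0 CPM in cTECs and at 280, 188 and 220 CPM in mTEChi (9.31, SE 0.67), Crnn at 0 to 0.378 CPM against 37.5, 61.3 and 55.4 CPM (8.48, SE 0.52) and Hrnr at 0 against 22.5, 18.6 and 18.2 CPM (at least 188-fold higher). Klk7, a protease of skin shedding, was at 1.29, 0.252 and 0.310 CPM against 84.2, 101 and 107 CPM (7.29, SE 0.44), and the tissue kallikrein Klk1 at 1.84, 0.378 and 0 CPM against 223, 159 and 156 CPM (7.92, SE 0.66). Both kinds of window stood before genes that were near 0 in cTECs and higher in mTEChi. Among tested genes only 59.9% had 1 window, too few to compare promoters between the higher and the lower genes.

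Part of the cell cycle genes were lower in mTEChi. Of 30 mitosis genes, 23 were lower, 7 did not pass and none was higher (median -1.12), and of 30 DNA replication genes 15 were lower, 14 did not pass and 1 was higher (median -0.76), beside 26.9% lower among all tested genes. No replication gene was higher without cTEC replicate 2 or 3 or mTEChi replicate 1. Kif11, the spindle kinesin, was at 106, 37.4 and 51.6 CPM in cTECs and at 7.78, 17.4 and 11.1 CPM in mTEChi (-2.33, SE 0.42, adjusted p = 0.00077; -1.73 without cTEC replicate 1). Bub1b, of the spindle checkpoint, was at 64.1, 44.5 and 33.2 CPM against 8.09, 16.1 and 13.7 CPM (-1.80, SE 0.32), and the helicase subunit gene Mcm4 at 83.5, 62.3 and 67.0 CPM against 15.97, 25.5 and 23.1 CPM (-1.61, SE 0.23). The proliferation marker Mki67 overlapped between the groups, at 40.2 to 85.8 CPM and 35.7 to 48.2 CPM (-0.49, adjusted p = 0.16), and so did Cdk1 (0.36, adjusted p = 0.38). The cTEC library with the highest thymocyte sum, replicate 1 (5107 CPM, against 1588 and 2298), also had the highest mitosis sum (2134 CPM, against 985 and 1196) and replication sum (1797 CPM, against 929 and 1191); mTEChi sums were 515 to 711 CPM and 474 to 677 CPM. The part of thymocyte RNA in these differences was not tested. Without cTEC replicate 1, 15 mitosis genes were lower and 2 higher, and 13 replication genes were lower, while the 23 thymocyte markers were still lower.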

How the data were processed

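RNA of sorted control cTECs and mTEChi was read from both ends on an Illumina NextSeq 500 after low-input SMART-Seq v4 amplification and Nextera XT library preparation, per the labels' protocols. The deposited files hold raw counts per gene, made by the authors with featureCounts on mm10, per the submitters' processing notes. The aligner, its annotation, versions and strand setting were not given in the sources used here, and genes that overlap in antisense cannot be told apart. Without molecular identifiers, PCR reads are not independent, so counting intervals and the limit that a count of 0 allows cover counting error only. The files list 27179 Entrez IDs, and 25275 matched a symbol and position in the RefSeq table of GRCm38.p6.

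Counts of the 6 libraries were fitted with edgeR 4.0.16 (R 4.3.3): filterByExpr on the 2 groups kept 18302 genes, libraries were scaled by TMM, and 1 coefficient per group was fitted by the robust quasi-likelihood method. P-values were adjusted over all 18302 genes by Benjamini and Hochberg's method, and a gene was called when its adjusted value was below 0.05. Log2 fold changes use the default prior count, and the SE is the size of that change over the root of its F statistic. CPM was computed on library totals and RPKM with the deposited gene lengths. Means are given with the SD of 3 libraries. Library measures were compared by exact permutation tests (scipy 1.17.1). The fitting code was tested on simulated data. No replicate block was used, since the labels do not say that a number marks 1 mouse or day.

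The comparison and the 39 gene lists were chosen with earlier results of these data known. Named genes are 20 genes that define the 2 epithelia, the 10 largest differences in each direction among called genes without overlap and with at least 10 CPM in the higher group, the 4 (or fewer) members per list that had the lowest p, the 8 most abundant genes per group, the β5 subunit genes, genes of the longest runs of neighbours and called genes at 0 in a group. Other list members named beside a count were chosen after their values were seen. Alternatives were DESeq2 1.42.0, limma 3.58.1 (voom), other scalings and filters, thinned counts, all 12 libraries in the fit, no mitochondrial genes, a test against a 2-fold change, a replicate block and each library left out. Promoter windows come from RefSeq (GRCm38.p6); no genome and no protein sequences were used.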

Additional observations from a re-analysis of the deposited data

How the results depend on the processing

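The 19 alternative fits called 10467 to 13433 genes except in the edgeR test against a 2-fold change, which called 7084 genes (5149 higher and 1935 lower), and with no filter on low counts, which called 14072. Leaving out 1 library gave 10467 to 12936 called genes, 6452 to 7934 higher and 4015 to 5002 lower. No gene called in both the reported fit and an alternative changed direction. Upper-quartile factors moved the share of calls that were higher from 58.4 to 64.2%. The call of 307 of 314 named genes was the same in every alternative. Ccl21a passed with DESeq2, with upper-quartile factors and without cTEC replicate 1, and Cd40, Cd74, H2-Ab1, Kif20a, Krt5 and Map1lc3b did not pass the 2-fold test (Cd74 also not without mTEChi replicate 3). Medians that changed sign were those of the Notch genes (0.0083 with upper-quartile factors, -0.40 to 0.11 with 1 library left out, 0.085 without replicate 1 of both groups), the immediate early genes (-0.59 to 0.066 with 1 library left out, above 0 without cTEC replicate 3) and the fibroblast and pericyte genes (-1.17 to 0.076 with 1 library left out, above 0 without cTEC replicate 1, 0.16 without replicate 1 of both groups); the cause was not tested.

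With 1 library left out, the difference between group means in genes detected at equal depth was 4587 to 5149 genes, with 5.19 to 8.43 percentage points for the 100 most abundant genes and 2.65 to 5.51 points for the mitochondrial share, where p cannot go below 0.2. A fit with the replicate number as a block (replicate block) called 11205 genes, 6632 higher and 4573 lower. Same-numbered libraries deviated together with correlations of 0.00049, 0.12 and -0.038, and differently numbered ones with -0.064 to 0.074. With 3 libraries per group, these values cannot show whether same-numbered samples were paired. At 2-fold, 311 runs of neighbours held 1877 higher genes, the longest 59. Against 2-fold, counts that fell by over 1.5 times included mitosis (23 to 7 lower), DNA replication (15 to 6 lower), class II (8 to 3 higher), class I (4 to 1 lower), interferon-stimulated (9 to 3 higher, 15 to 9 lower) and RANK and NF-kB genes (11 to 5 higher, 5 to 2 lower). The planned comparison of promoters between higher and lower genes was not run, because 59.9% of tested genes had 1 window. Depth limits single genes at 0: up to 0.105 CPM in cTECs and 0.107 CPM in mTEChi cannot be told from none.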

Other observations

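The most abundant RNAs of each epithelium were compared by mean CPM. In cTECs the 8 genes with the highest mean were Ctsl, Cd74, Prss16, Krt18, Ccl25, Tbata, H2-Ab1 and Malat1, while the mTEChi set was Malat1, Cd74, Lars2, COX1, H2-Ab1, B2m, COX3 and H2-D1. Tbata, a thymus and brain gene, was at 10196, 6641 and 8085 CPM in cTECs and at 893, 732 and 695 CPM in mTEChi (-3.31, SE 0.25, adjusted p = 3.5e-06). Lars2, a mitochondrial leucyl-tRNA synthetase gene, was at 6421, 4289 and 4992 CPM against 34712, 14848 and 18534 CPM (2.25, SE 0.35, adjusted p = 0.00032). Within each group its libraries ranked as they did for the mitochondrial ribosomal RNA gene mt-Rnr2. That gene was at 573, 265 and 415 CPM in cTECs and at 8125, 1692 and 2475 CPM in mTEChi. Whether mitochondrial reads were counted for Lars2 was not tested, so its level is uncertain. All 15 mitochondrially encoded genes listed were higher in mTEChi (median 2.26), and their shares of counts by library are given above. COX1 had a log2 fold change of 2.68, and of 2.04 without mTEChi replicate 1.

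Interferon-stimulated genes did not go in 1 direction: 9 of 38 were higher and 15 lower in mTEChi (median log2 fold change -0.34). Of all tested genes, 37.7% were higher and 26.9% lower, with a median of 0.17. Isg20, an exonuclease gene, was at 2025, 1560 and 1761 CPM in cTECs and at 134, 160 and 148 CPM in mTEChi (-3.48, SE 0.20). The RNA sensor gene Ddx58 (-2.43) and Ifi44 (-2.09) were lower as well. Genes of the oligoadenylate synthetase family were among the higher ones: Oasl1 at 5.89, 11.2 and 11.98 CPM against 95.6, 164 and 152 CPM (3.94, SE 0.31), and Oas3 (1.95), Oas2 (1.63) and the antiviral GTPase gene Mx1 (1.46) had smaller log2 fold changes.

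Of 27 endoplasmic reticulum stress genes tested, 9 were higher and 3 lower (median 0.38), beside 37.7% and 26.9% of all tested genes. Manf was at 73.1, 39.4 and 47.7 CPM in cTECs and 333, 242 and 263 CPM in mTEChi (2.50, SE 0.28), Herpud1 at 60.8, 45.1 and 41.5 CPM against 171, 260 and 248 CPM (2.31, SE 0.23) and the chaperone gene Hsp90b1 at 521, 512 and 526 CPM against 1308, 1297 and 1292 CPM (1.44, SE 0.17). The transcription factor gene Xbp1 was lower, at 334, 365 and 354 CPM against 86.3, 150 and 144 CPM (-1.36, SE 0.22). Immediate early genes, a class known to respond to cell handling, were 6 higher and 5 lower of 27 (median -0.26), beside the same shares of all tested genes. Without cTEC replicate 1, 12 immediate early genes were lower, and without replicate 1 of both groups 14 were. Ier5 was at 21.6 to 30.8 CPM against 214 to 255 CPM (3.33, SE 0.23), Nr4a1 was lower (-2.31), and Fos overlapped, at 185, 537 and 638 CPM in cTECs and 260, 378 and 405 CPM in mTEChi (-0.26, adjusted p = 0.55).

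Among the 7 runs of neighbours that were at least 4-fold lower in mTEChi, 3 held T cell receptor genes. Runs on chromosome 6 of 14 T cell receptor β variable genes (41047556 to 41188977, median log2 fold change -3.86) and of 13 genes that hold the β joining and constant segments and Ephb6 (41533864 to 41620509, median -4.54), and a run on chromosome 14 of 4 δ and α segments (53960993 to 54224198, median -3.01), hold genes that thymocytes express; the thymocyte markers, lower in mTEChi as well, are given above, and their part was not tested. Neighbours of Ctsa on chromosome 2 (164827382 to 164857708) were Spata25, Neurl2 and Pltp (4 genes with Ctsa, median -3.15). Other runs of 4 genes each hold Edar and Map4k5 (medians -2.69 and -2.70). Genes of these paragraphs outside the naming rule (Oas2, Oas3, Mx1, Xbp1, Fos and the members of runs) were chosen after their values were seen.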
